A study of Mus musculus with 3 samples.

Results

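The angiopoietin-Tie and PDGF vessel signals are 10 mouse genes of 25154 listed in the deposited tables. They were chosen by name for their roles, with earlier results of these data known. They are the ligands Angpt1 and Angpt2, their receptor Tek, its partner Tie1, the receptor phosphatase Ptprb, the ligands Pdgfa, Pdgfb and Pdgfd, and the receptors Pdgfra and Pdgfrb. All 10 were detected in each of 3 single-nucleus RNA sequencing (snRNA-seq) libraries of brown adipose tissue (BAT) from adult wild-type (WT) C57Bl6 mice, which share strain, genotype and tissue. One library came from mice without treatment, 1 is labelled as sham operation and 1 came from denervated BAT, in which per the study's methods the left intercostal nerves of 20 male mice aged 8 weeks were cut and nuclei were taken 3 days later, with tamoxifen administrations named in the same description. The study's methods describe both the intact lobe opposite the cut nerves and separate sham-operated mice as controls of other experiments, and which of these the sham library holds, and from how many animals, is not given in the sources used here. Nuclei came from the floating layer of adipocytes with attached vessel fragments, so cells that this layer does not keep are not represented, and each condition is 1 library, so there is no replicate and no test between conditions. All intervals below are 95% intervals and cover counting error only.

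Angpt1 activates the receptor tyrosine kinase Tek (Tie2) on endothelial cells (ECs) and keeps vessels quiescent, whereas Angpt2 can block or activate Tek depending on context. Tie1 modulates the signal of Tek, and Ptprb (VE-PTP) removes phosphate from Tek. Platelet-derived growth factors are made as dimers: Pdgfb made by ECs recruits pericytes (PCs) through Pdgfrb, Pdgfd also acts on Pdgfrb after cleavage, and Pdgfa acts on Pdgfra, a marker of fibroblasts and adipocyte progenitors. In fat depots these signals are known for matching vessels and mural cells to the adipocytes.

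Across the libraries, 9420030 to 14971579 unique molecular identifiers (UMIs, 1 per counted RNA molecule) were listed in 13707 to 15822 barcodes. After filtering and removal of doublets, 9430 to 11214 nuclei per library remained. Mitochondrial RNA made up 6.71% of the UMIs in the untreated, 12.9% in the sham and 2.95% in the denervated library, and median UMIs per barcode were 859, 781 and 428, so the libraries stand apart in quality and depth as well as in treatment, and these cannot be told apart. Between 251 and 278 cell indices were shared by each pair of libraries, at most 1.85% of either. Classes were named from marker genes that exclude the 10 genes, which were also left out of the clustering.

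The classes were checked against their markers. Nuclei called endothelial-like (EC-like) numbered 4478 in the untreated, 4676 in the sham and 2014 in the denervated library, with all 10 endothelial markers detected and a summed level of 11792 to 13883 CPM (UMIs per 1000000 UMIs of the class). Nuclei called brown adipocyte-like (BA-like) numbered 4715, 3231 and 5052, with all 12 markers detected at 9894 to 10918 CPM. Pericyte-like (PC-like) nuclei numbered 534, 1249 and 714, with all 11 markers detected at 15110, 17343 and 9040 CPM, lowest in the denervated library. RNA of other classes was present in each: the endothelial list summed to 288 to 390 CPM in BA-like nuclei, with Egfl7 at 0 in the sham and denervated libraries, and to 489 to 749 CPM in PC-like nuclei, while the brown adipocyte list summed to 1335 to 1728 CPM in EC-like nuclei. White adipocyte-like (WA-like) nuclei numbered 118, 1349 and 976, more than PC-like nuclei in the sham and denervated libraries, with all 5 markers detected at 8122 to 15344 CPM. They also held the brown adipocyte list at 7866, 11404 and 6098 CPM, in the sham library above its level in BA-like nuclei, which bears on each contrast of WA-like with BA-like nuclei.

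The small classes were less clean. Fibroblast-like nuclei, 28 to 59 per library, held all 12 fibroblast markers at 12144 to 19267 CPM. Smooth muscle-like nuclei, 80 in the untreated and 362 in the sham library, held the smooth muscle list at 5778 and 5794 CPM but the pericyte list at 11860 and 8731 CPM, above it, which bears on every contrast of these nuclei with PC-like nuclei. Schwann-like nuclei, 25, 117 and 36, held the Schwann list at 11149, 10632 and 3212 CPM and the fibroblast list at 6998, 5524 and 6004 CPM, which is the higher list in the denervated library.

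The gene for Tek, at chr4:94739289-94874976 on the forward strand of GRCm38, was highest in ECs, and Pdgfd, at chr9:6168584-6378850 on the forward strand, was highest in BAs in 2 of the 3 libraries, so 250 bases before the RefSeq start of each are shown as examples of the regulatory sequence of an endothelial and an adipocyte member. The Tek window is chr4:94739039-94739288 and the Pdgfd window is chr9:6168236-6168485, both on the forward strand, outside annotated exons and taken from RefSeq on GRCm38.p6. Capitals mark the ETS core AGGAA, read on either strand (TTCCT is its reverse), and the TATA box letters TATAAA.
Tek: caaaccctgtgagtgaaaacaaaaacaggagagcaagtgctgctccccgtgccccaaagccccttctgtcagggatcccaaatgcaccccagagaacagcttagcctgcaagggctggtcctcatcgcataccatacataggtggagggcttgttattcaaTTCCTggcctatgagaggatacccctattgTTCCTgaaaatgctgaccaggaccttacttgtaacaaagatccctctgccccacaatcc
Pdgfd: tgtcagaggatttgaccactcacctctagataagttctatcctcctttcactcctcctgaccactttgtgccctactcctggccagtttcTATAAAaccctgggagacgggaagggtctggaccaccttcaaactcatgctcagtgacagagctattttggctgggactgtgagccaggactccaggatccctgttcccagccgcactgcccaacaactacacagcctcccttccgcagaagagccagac
The Tek window held the ETS letters at 2 places and no TATAAA, and the Pdgfd window held TATAAA once and no AGGAA. Of 32851 promoter windows of this length, 60.3% held AGGAA at least once and 26% held it at least 2 times, and 12.4% held TATAAA. These matches are descriptions of the letters and say nothing of factor binding.

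Tek, Tie1, Ptprb and Pdgfb were EC genes, Pdgfrb was a mural cell gene, and Angpt1 was a gene of both mural cells and adipocytes. Pdgfa was highest in smooth muscle-like and Schwann-like nuclei, and Pdgfra was a fibroblast gene. Pdgfd was highest in BAs in the untreated and denervated libraries. It was also seen in ECs, where its denervated level was below that of barcodes under 200 genes. A difference was counted where it was at least 2-fold, its interval left out 0 on the log2 scale and at least 10 UMIs stood behind it. Between EC-like and BA-like nuclei, 6 of the 10 genes were counted in all 3 libraries, 5 higher in ECs and 1 lower, beside 26.6% of 13622 genes tested in the same way (13% higher and 13.6% lower). Between PC-like and EC-like nuclei, 8 of the 10 were counted in all 3 libraries, 3 higher in PCs and 5 lower, beside 16.6% of 10249 genes (9.25% higher and 7.39% lower). Since the genes were chosen for roles in vessel cells, a share above that of all genes is not a finding in itself.

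**Figure D1:**
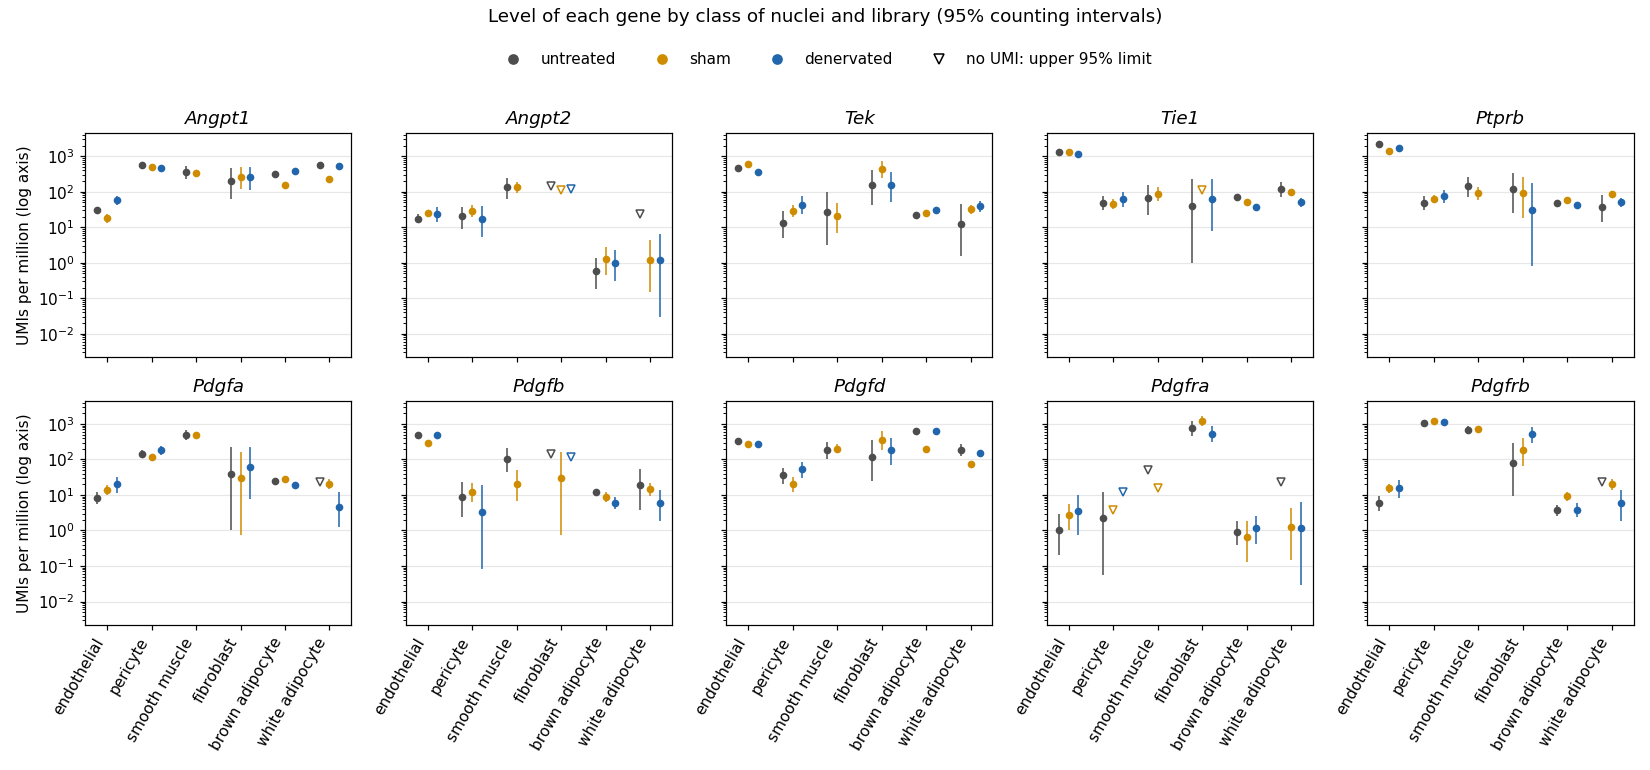
Level of each gene in CPM (log axis) by class of nuclei, with 1 point per library and 95% counting intervals; open triangles mark classes with no UMI at their upper limit. Tek, Tie1, Ptprb and Pdgfb peak in endothelial, Pdgfrb in pericyte and Pdgfra in fibroblast nuclei in every library, while Pdgfd in brown adipocyte nuclei is 196 CPM in the sham against 641 and 653 CPM in the untreated and denervated libraries.

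Among the angiopoietins, Angpt1 was a mural cell and adipocyte gene, and fibroblast-like nuclei held it as well. In PC-like nuclei its level was 560 CPM (interval 492 to 634) in the untreated, 489 CPM (446 to 535) in the sham and 466 CPM (392 to 550) in the denervated library. In BA-like nuclei it was 322 CPM (310 to 334), 159 CPM (148 to 170) and 374 CPM (358 to 391), and in WA-like nuclei 561, 225 and 521 CPM. The PC levels overlapped in their intervals across libraries, whereas both adipocyte classes were lowest in the sham library. A UMI of Angpt1 was seen in 35.6%, 16.5% and 27.0% of BA-like nuclei, and in 8.95%, 4.4% and 10.4% after each nucleus was thinned to 300 UMIs. In EC-like nuclei the level was 30.9, 18.2 and 58.9 CPM, from 91, 48 and 50 UMIs, with a thinned share of 0.978%, 0.4% and 1.58%. Angpt1 was therefore lower in ECs than in BAs in every library, with log2 ratios of −3.38, −3.13 and −2.67, and higher in PCs than in ECs by log2 4.18, 4.75 and 2.98. WA-like nuclei exceeded BA-like nuclei by log2 0.80 (0.48 to 1.11), 0.51 (0.32 to 0.69) and 0.48 (0.33 to 0.63). WA-like over PC-like nuclei was log2 0.00 (−0.36 to 0.36) in the untreated and 0.16 (−0.11 to 0.45) in the denervated library, so their order was not resolved. In the sham library PC-like nuclei were the highest class. Smooth muscle-like nuclei held Angpt1 at 358 CPM in the untreated and 339 CPM in the sham library. Fibroblast-like nuclei held it at 199, 269 and 253 CPM in the untreated, sham and denervated libraries, from 5, 9 and 8 UMIs. Angpt1 spans 252 kb at chr15:42424723-42676977 on the reverse strand.

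Angpt2, the context-dependent ligand of Tek, was sparse. EC-like nuclei held 52, 65 and 20 UMIs across the untreated, sham and denervated libraries, or 17.6 CPM (13.2 to 23.1), 24.6 CPM (19 to 31.3) and 23.6 CPM (14.4 to 36.4). The 3 intervals overlapped, and so did those of PC-like nuclei, at 20.2, 29.6 and 16.6 CPM from 9, 29 and 5 UMIs. Smooth muscle-like nuclei had the highest level, 133 CPM (63.5 to 244) in the untreated and 138 CPM (95.2 to 194) in the sham library, above PC-like nuclei by log2 2.71 (1.26 to 4.19) and 2.22 (1.46 to 2.99). BA-like nuclei held only 5, 6 and 5 UMIs, with log2 ratios of ECs over BAs of 4.93, 4.27 and 4.61. Barcodes under 200 genes, a measure of free RNA, held Angpt2 at 20.1, 5.03 and 25.2 CPM, so that in the untreated and denervated libraries the EC level was not above this background. Angpt2 was no longer counted between ECs and BAs after subtraction of ambient RNA, with nuclei of at least 500 genes or with at least 30 UMIs asked for. No UMI was seen in the fibroblast-like nuclei of any library, where the upper limits were 147, 110 and 117 CPM, so a level like that of ECs could not be detected there.

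The Tie receptors and Ptprb were EC genes. Tek in EC-like nuclei was 472 CPM (447 to 497) in the untreated, 600 CPM (570 to 630) in the sham and 362 CPM (322 to 404) in the denervated library, and these intervals did not overlap. A UMI was seen in 23.2%, 25.1% and 12.8% of EC-like nuclei, whose median depths were 624.5, 485 and 345 UMIs, and in 12.6%, 15.5% and 9.69% after thinning. In PC-like nuclei the thinned share was 0.308%, 0.724% and 0.711%, at median depths of 757.5, 753 and 375.5 UMIs. Against PCs, Tek was lower than in ECs by log2 −5.13, −4.39 and −3.06. Against BAs, at 22.4 to 30.4 CPM, ECs were higher by log2 4.40, 4.52 and 3.57.

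Fibroblast-like nuclei were the only other class with a Tek level above 100 CPM, at 159 CPM (43.4 to 408) in the untreated, 449 CPM (251 to 740) in the sham and 158 CPM (51.4 to 369) in the denervated library. These values rest on 4, 15 and 5 UMIs in 28, 48 and 59 nuclei. In the sham and denervated libraries the difference between EC-like and fibroblast-like nuclei, log2 0.42 (−0.31 to 1.26) and 1.19 (−0.05 to 2.83), was within counting error. Tie1 in the same fibroblast-like nuclei had 1, 0 and 2 UMIs. Of the 10 endothelial markers 7 were detected in these nuclei in each library, at a summed 478, 329 and 601 CPM, and Egfl7 was at 0 in all 3. Their part in the Tek level was not tested.

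Tie1 in ECs varied little between libraries. Its level in EC-like nuclei was 1282 CPM (1242 to 1324), 1285 CPM (1242 to 1328) and 1177 CPM (1105 to 1252) in the untreated, sham and denervated libraries. The first 2 intervals nearly coincided and the denervated one lay lower with a small overlap. The thinned share of nuclei with a UMI was 29.7%, 30.8% and 26.4%, against 1.43%, 1.41% and 1.86% in PC-like nuclei. ECs exceeded BAs by log2 4.16, 4.62 and 5.02, and PCs were below ECs by log2 −4.70, −4.80 and −4.22. Tie1 lies at chr4:118471191-118490061 on the reverse strand.

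Ptprb, which opposes Tek signalling, had 2272 CPM (2218 to 2327) in untreated, 1444 CPM (1399 to 1491) in sham and 1715 CPM (1628 to 1805) in denervated EC-like nuclei. The sham library was lowest and the intervals were apart. In PC-like nuclei the level was 49.5, 63.3 and 76.5 CPM and in BA-like nuclei 47.5, 59.6 and 41.4 CPM. ECs were above BAs by log2 5.58, 4.60 and 5.37, and PCs were below ECs by log2 −5.52, −4.51 and −4.49.

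Among the PDGF ligands, Pdgfb, the EC signal to PCs, reached 497 CPM (472 to 523) in untreated, 298 CPM (278 to 320) in sham and 476 CPM (431 to 525) in denervated EC-like nuclei. Untreated and denervated ECs overlapped and sham ECs were lower. PC-like nuclei held 4, 12 and 1 UMIs, and BA-like nuclei 12.3, 8.91 and 6.0 CPM. ECs exceeded BAs by log2 5.34, 5.07 and 6.31. For PCs over ECs the log2 ratios were −5.79 (−7.67 to −4.43), −4.61 (−5.56 to −3.79) and −7.16 (−12.47 to −4.67). Pdgfb lies at chr15:79995874-80014977 on the reverse strand.

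Pdgfa, the ligand of Pdgfra, was highest in smooth muscle-like and Schwann-like nuclei, with little signal in ECs. Smooth muscle-like nuclei had 504 CPM (356 to 691) in the untreated and 482 CPM (398 to 578) in the sham library. Schwann-like nuclei had 627 CPM (334 to 1073), 359 CPM (232 to 530) and 465 CPM (223 to 856) in the untreated, sham and denervated libraries, from 13, 25 and 10 UMIs. The order of these classes could not be resolved in the untreated and sham libraries, where they differed by log2 0.32 (−0.72 to 1.26) and 0.43 (−0.21 to 1.11), with Schwann-like nuclei higher in the untreated and smooth muscle-like nuclei higher in the sham library. PC-like nuclei had 146, 118 and 180 CPM with overlapping intervals, below smooth muscle-like nuclei by log2 1.79 (1.17 to 2.38) and 2.02 (1.64 to 2.41). EC-like nuclei had 8.48, 14 and 20 CPM and BA-like nuclei 24.2, 28 and 19.5 CPM, so PCs exceeded ECs by log2 4.11, 3.08 and 3.17.

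A smooth muscle-like class was not split off in the denervated library in the main clustering, but was under some other settings, among them clustering of the 3 libraries together. In that clustering Pdgfa was 417 CPM (304 to 558) in 134 untreated, 445 CPM (372 to 529) in 440 sham and 468 CPM (316 to 669) in 141 denervated smooth muscle-like nuclei, and the intervals overlapped. Angpt2 had 12, 32 and 2 UMIs there, at 111 CPM (57.4 to 194), 110 CPM (75 to 155) and 31.2 CPM (3.78 to 113). Pdgfrb was 658, 726 and 859 CPM with overlapping intervals. In PC-like nuclei of that clustering Pdgfa was 142 CPM (108 to 184), 110 CPM (89.6 to 134) and 104 CPM (65.8 to 156). The denervated value was the lowest there, whereas it was the highest in the main clustering.

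Pdgfd, a Pdgfrb ligand that is activated by cleavage, was highest in BAs in the untreated and denervated libraries. In BA-like nuclei its level was 641 CPM (624 to 658) in the untreated, 196 CPM (183 to 209) in the sham and 653 CPM (632 to 676) in the denervated library. Untreated and denervated BAs overlapped and sham BAs were far lower. A UMI was seen in 54.9%, 19.8% and 41.1% of BA-like nuclei, and in 16.6%, 5.4% and 17.4% after thinning to 300 UMIs, against 1.21%, 0.625% and 1.46% of PC-like nuclei. WA-like nuclei had 187, 72.5 and 154 CPM, below BAs by log2 −1.78 (−2.35 to −1.26), −1.43 (−1.72 to −1.15) and −2.09 (−2.35 to −1.83). The contrast with Angpt1, which was higher in WAs than in BAs, held in all 3 libraries of the main clustering, for which alone these ratios are given. The size of the WA-like class depended on the settings. It was 118, 1349 and 976 nuclei here and 781, 1868 and 986 with the libraries clustered together. With nuclei classed one by one it was 213 in the sham and 211 in the denervated library.

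EC-like nuclei also held Pdgfd, at 328 CPM (308 to 349), 275 CPM (255 to 296) and 277 CPM (243 to 315). Relative to BAs the log2 ratio was −0.97 (−1.07 to −0.87) in the untreated, 0.49 (0.35 to 0.63) in the sham and −1.24 (−1.44 to −1.05) in the denervated library, so that the direction in the sham library was opposite to the others. Barcodes under 200 genes held Pdgfd at 260 CPM (217 to 309), 65.4 CPM (42.7 to 95.8) and 357 CPM (318 to 399). The EC level was above this background in the sham and below it in the denervated library, and the untreated intervals overlapped. The part of free RNA in the EC level was not tested. PC-like nuclei, with 16, 20 and 16 UMIs, were below ECs by log2 −3.19, −3.75 and −2.38. Smooth muscle-like nuclei had 186 and 201 CPM, above PC-like nuclei by log2 2.37 (1.22 to 3.50) and 3.30 (2.52 to 4.13). Fibroblast-like nuclei had 119, 359 and 190 CPM in the untreated, sham and denervated libraries, from 3, 12 and 6 UMIs. They were the highest class in the sham library, where they differed from ECs by log2 0.38 (−0.57 to 1.20), within counting error.

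The PDGF receptors divided between mural cells and fibroblasts. Pdgfrb, the PC receptor for Pdgfb and Pdgfd, was 1032 CPM (939 to 1131), 1178 CPM (1111 to 1248) and 1161 CPM (1043 to 1290) in PC-like nuclei of the untreated, sham and denervated libraries. The level was near even, and the thinned share of nuclei with a UMI was 25%, 28.3% and 28.4%. Smooth muscle-like nuclei had 689 and 708 CPM, lower than PCs by log2 −0.58 (−1.03 to −0.17) and −0.73 (−0.98 to −0.50). PCs exceeded ECs, at 6.11, 15.5 and 15.3 CPM, by log2 7.40, 6.25 and 6.24. In fibroblast-like nuclei Pdgfrb had 2, 6 and 16 UMIs, or 79.6, 179 and 506 CPM, and the denervated library was higher than the untreated by log2 2.67 (0.58 to 5.83) and higher than the sham library, with an interval of 0.07 to 3.14. The pericyte list in these nuclei was 995, 1017 and 411 CPM from 25, 34 and 13 UMIs, with 8, 9 and 6 of 11 markers detected. Barcodes under 200 genes held Pdgfrb at 12.1, 22.6 and 79.1 CPM, below the levels of fibroblast-like nuclei but in the same order. The part of the pericyte list and of free RNA in the Pdgfrb values was not tested.

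Pdgfra, the receptor of Pdgfa, was at 756 CPM (455 to 1181), 1196 CPM (855 to 1629) and 538 CPM (313 to 861) in fibroblast-like nuclei, from 19, 40 and 17 UMIs. Untreated values overlapped with both others, and denervated fibroblasts were lower than sham ones by log2 −1.15 (−2.06 to −0.30). PC-like nuclei held 1, 0 and 0 UMIs, smooth muscle-like nuclei none, and BA-like nuclei 8, 3 and 6 UMIs among 8629967, 4713512 and 5167802. With 0 UMIs in PCs, the interval of the log2 ratio of fibroblasts over PCs began at 8.24 in the sham and at 5.29 in the denervated library. In the untreated library, with 1 UMI in PCs, the log2 ratio was 8.39 (5.74 to 13.77).

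**Figure D2:**
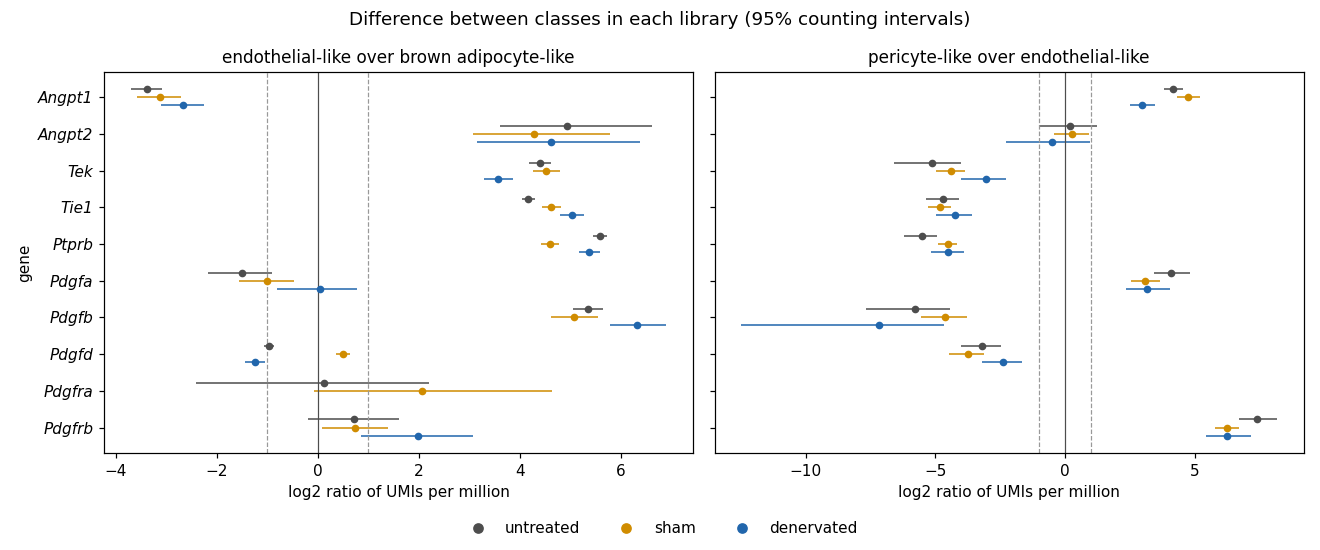
Log2 ratio of CPM between classes for each gene, with 1 point per library and 95% counting intervals. Angpt2, Tek, Tie1, Ptprb and Pdgfb lie right of 0 for endothelial over brown adipocyte nuclei in every library while Angpt1 lies left, and Pdgfrb is furthest right for pericyte over endothelial nuclei at 7.40, 6.25 and 6.24.

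Within ECs, Pdgfd was higher in an arterial-like subset. Clustering of EC-like nuclei gave an arterial-like sub-cluster of 263 nuclei in the untreated and 152 in the sham library and a venous-like one of 66 and 393 nuclei. None could be named in the denervated library. Pdgfd was 1094 CPM (946 to 1259) in untreated arterial-like nuclei, 276 CPM (157 to 447) in venous-like nuclei and 279 CPM (259 to 299) in the remaining ECs, and in the sham library 721 CPM (545 to 936), 214 CPM (158 to 285) and 266 CPM (245 to 288). Arterial-like nuclei were higher than the remaining ECs by log2 1.97 (1.74 to 2.20) and 1.44 (1.02 to 1.84), while venous-like nuclei were near them, at log2 −0.02 and −0.31 with intervals that include 0.

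Ptprb was higher in arterial-like and in venous-like nuclei than in the remaining ECs, of which no cluster was named capillary-like. Arterial-like nuclei exceeded the remaining ECs by log2 0.78 (0.67 to 0.90) in the untreated and 1.13 (0.93 to 1.32) in the sham library, and venous-like nuclei by 0.66 (0.44 to 0.86) and 0.46 (0.31 to 0.61). Tie1 was lower in untreated arterial-like nuclei by log2 −0.71 (−0.96 to −0.47), and in the sham library the value was −0.16 (−0.48 to 0.14). For Pdgfb the 2 libraries gave unlike values, with venous-like over remaining ECs at log2 −0.93 (−1.77 to −0.20) in the untreated and 0.36 (0.00 to 0.69) in the sham library. Angpt2 had no UMI in arterial-like nuclei of either library, which allows up to 20.7 and 47.5 CPM, and 11 UMIs or 50.2 CPM (25.1 to 89.8) in sham venous-like nuclei.

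**Figure D3:**
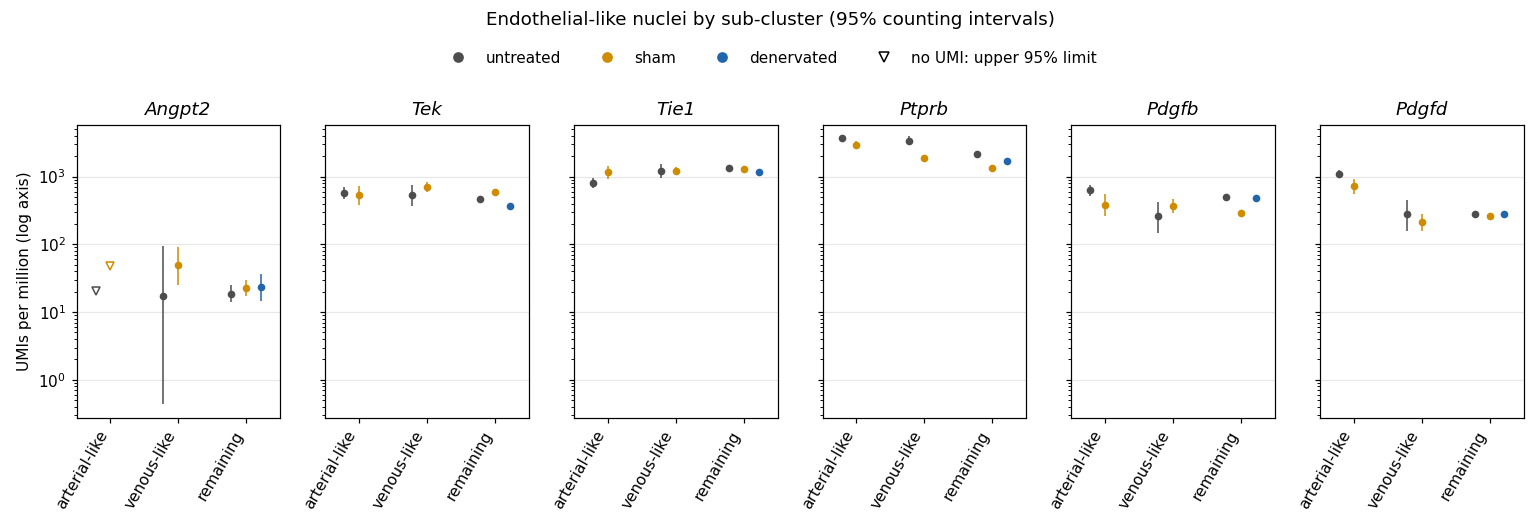
Levels of the genes in CPM (log axis) in arterial-like, venous-like and remaining endothelial-like nuclei, with 1 point per library, 95% counting intervals and open triangles at the upper limit where no UMI was seen. Pdgfd stands highest in arterial-like nuclei, at 1094 and 721 CPM, and Angpt2 has no UMI there.

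The study cut the nerves of BAT, so the classes were compared between libraries. A difference from denervation was counted only where the denervated library differed at least 2-fold from both others in 1 direction. In EC-like nuclei 0 of the 10 genes met this rule, beside 4.75% of 12082 genes. PC-like nuclei also gave 0, beside 5.42% of 9026 genes, and BA-like nuclei 0, beside 5.56% of 15571 genes. Not all 10 had the UMIs needed in both contrasts. Denervated over untreated was tested for 9 members in ECs, 8 in PCs and 10 in BAs, and denervated over sham for 10, 9 and 9. Among the smaller classes, to which the rule was applied after the data were seen, fibroblast-like nuclei gave 1 of 3 members tested, Pdgfrb, higher from 16 denervated against 2 untreated and 6 sham UMIs, beside 7.73% of 1139 genes. WA-like nuclei gave 0 of 5, beside 3% of 8994 genes, and Schwann-like nuclei 0 of 1, beside 17.6% of 840 genes. Since the denervated library enters both contrasts, they are not independent.

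Against a single library some members differed by 2-fold. In ECs, denervated over untreated gave 2 of 9 members, both higher, beside 7.89% of 12503 genes. These were Pdgfa, 20 against 8.48 CPM with log2 1.24 (0.26 to 2.19), and Pdgfrb, 15.3 against 6.11 CPM with log2 1.33 (0.18 to 2.44), and both rest on 13 to 25 UMIs per library. Denervated over sham gave Angpt1 alone, log2 1.70 (1.10 to 2.30), beside 15.3% of 12647 genes, and this value turned to −0.27 with nuclei of at least 500 genes. Barcodes under 200 genes held Angpt1 at 32.7 CPM in the sham and 124 CPM in the denervated library, above the EC levels and in the same order, and the part of free RNA was not tested. Sham over untreated gave Pdgfrb alone, log2 1.34 (0.51 to 2.23), beside 8.6% of 13341 genes. This gene was no longer counted with at most 10% mitochondrial UMIs (log2 0.95), with nuclei weighted equally (0.99) or after subtraction of ambient RNA. The pericyte list in EC-like nuclei was 282, 362 and 424 CPM in the untreated, sham and denervated tissue, 11 of 11 markers detected in each, lowest in the untreated library as Pdgfrb and Pdgfa were. The Schwann list there was 24.8, 27.6 and 38.9 CPM, with Sox10 at 0 in the sham library, and the smooth muscle list was 134, 117 and 130 CPM. Barcodes under 200 genes held Pdgfrb at 12.1, 22.6 and 79.1 CPM in the untreated, sham and denervated libraries, from 6, 9 and 69 UMIs. These values were above the EC levels and lowest in the untreated library. The part of these lists in the Pdgfa value, and of these lists and free RNA in both Pdgfrb values, was not tested.

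The abundant EC members moved by less than 2-fold. Tek in denervated ECs was lower by log2 −0.38 (−0.57 to −0.20) than in untreated and −0.73 (−0.91 to −0.55) than in sham ECs, values below which lay 8.23% of 3790 and 4.02% of 3778 well-counted genes. Barcodes under 200 genes held Tek at 252, 161 and 384 CPM in the untreated, sham and denervated libraries. The EC level was above this background in the first 2 but not in the denervated library, and the part of free RNA was not tested. Ptprb was at log2 −0.41 (−0.49 to −0.32) against untreated and 0.25 (0.16 to 0.34) against sham ECs, and Pdgfb at −0.06 (−0.22 to 0.10) and 0.67 (0.50 to 0.85), so neither kept 1 direction against both libraries. Tie1 was at −0.12 (−0.23 to −0.02) and −0.13 (−0.23 to −0.02). Beside these values, mitochondrial RNA in EC-like nuclei was 9.09%, 11.4% and 5.53% of UMIs in the untreated, sham and denervated libraries, and its part in the differences was not tested. The share of EC-like UMIs that matched the profile of barcodes under 200 genes was estimated at 38.6%, 64.7% and 56.1%, a profile that itself holds vessel RNA, against 2.54% to 7.99% in BA-like nuclei. The brown adipocyte list moved with Angpt1 in ECs, at 1466, 1335 and 1728 CPM, 12 of 12 markers detected in each library, and its part was not tested either.

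In PC-like nuclei the levels of Pdgfrb and Angpt1 differed by far less than 2-fold. The pericyte list in these nuclei was 15110, 17343 and 9040 CPM in the untreated, sham and denervated libraries. Its part in the comparisons between libraries was not tested. Pdgfrb was at log2 0.17 (−0.03 to 0.37) for denervated over untreated, −0.02 (−0.20 to 0.15) for denervated over sham and 0.19 (0.03 to 0.35) for sham over untreated. Angpt1 was at −0.26 (−0.57 to 0.04), −0.07 (−0.35 to 0.20) and −0.19 (−0.42 to 0.03). Denervated over untreated counted Tek alone of 8 members, log2 1.68 (0.19 to 3.36) from 13 against 6 UMIs, beside 9.57% of 9090 genes. Denervated over sham counted Pdgfd alone of 9, log2 1.38 (0.34 to 2.40) from 16 against 20 UMIs, beside 14.2% of 10541 genes, and sham over untreated counted none of 9, beside 7.2% of 10630 genes. The endothelial list in PC-like nuclei was 490, 489 and 749 CPM of the untreated, the sham and the denervated library, with Egfl7 at 0 in the untreated and denervated ones, and its part in the Tek value was not tested. The smooth muscle list there was 285, 331 and 882 CPM, with 8, 9 and 10 of 11 markers detected, and no smooth muscle-like class was split off in the denervated library. Clustering the libraries together split off such a class in each. PC-like nuclei of that clustering held Pdgfd at 26.9 CPM (13.4 to 48.2), 15.2 CPM (8.33 to 25.6) and 49.6 CPM (24.8 to 88.8). Barcodes under 200 genes held Pdgfd at 260, 65.4 and 357 CPM. The part of the smooth muscle list and of free RNA in the Pdgfd value was not tested.

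In BAs the sham library stood apart for both adipocyte ligands. Pdgfd was lower in sham than in untreated BAs by log2 −1.71 (−1.81 to −1.61) and Angpt1 by −1.02 (−1.14 to −0.90). These were 2 of 3 members counted, the third being Pdgfrb at 1.33 (0.64 to 2.04), beside 16.3% of 15888 genes. Denervated over sham gave the mirror image, with Pdgfd at 1.74 (1.63 to 1.85), Angpt1 at 1.24 (1.12 to 1.36) and Pdgfrb at −1.27 (−2.11 to −0.48), beside 23.4% of 15735 genes. The pericyte list in BA-like nuclei, 11 of 11 markers detected in each library, was 244, 300 and 236 CPM, highest in the sham library as Pdgfrb was, and its part was not tested. Denervated and untreated BAs were near each other, Pdgfd at 0.03 (−0.03 to 0.09) and Angpt1 at 0.22 (0.14 to 0.30). Only Pdgfb was counted there, log2 −1.03 (−1.66 to −0.44) from 31 against 106 UMIs, beside 9.07% of 16468 genes. Tie1 in the same BAs was at −0.98 (−1.23 to −0.74), and the endothelial list summed to 327 CPM in untreated and 288 CPM in denervated BAs; its part was not tested.

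The low sham values of Pdgfd and Angpt1 were seen in every adipocyte cluster. Pdgfd was 602 to 645 CPM in the 3 untreated, 165 and 203 CPM in the 2 sham and 595 and 750 CPM in the 2 denervated BA-like clusters, and Angpt1 was 314 to 384, 155 and 172, and 326 and 454 CPM. In WA-like nuclei sham over untreated was log2 −1.37 (−1.95 to −0.74) for Pdgfd and −1.31 (−1.65 to −0.97) for Angpt1. Only 0.938% of 8960 well-counted genes in BAs lay below the Pdgfd value and 4.72% below that of Angpt1. Both genes are long, 210 and 252 kb, and genes of at least 100 kb had a median of −0.20 for sham over untreated in BAs, against 0.16 for genes under 20 kb. Barcodes with under 200 detected genes, which were not used as nuclei, held Pdgfd at 260, 65.4 and 357 CPM and Angpt1 at 96.7, 32.7 and 124 CPM, lowest in the sham library as well. The white adipocyte list in BA-like nuclei, 5 of 5 markers detected in each library, was 1228, 3738 and 1536 CPM, highest in the sham library. The part of RNA quality, gene length, white adipocyte RNA and free RNA in these differences was not tested. The sham table also carries no header that names its pipeline or annotation, so processing and condition cannot be told apart for values particular to the sham library.

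**Figure D4:**
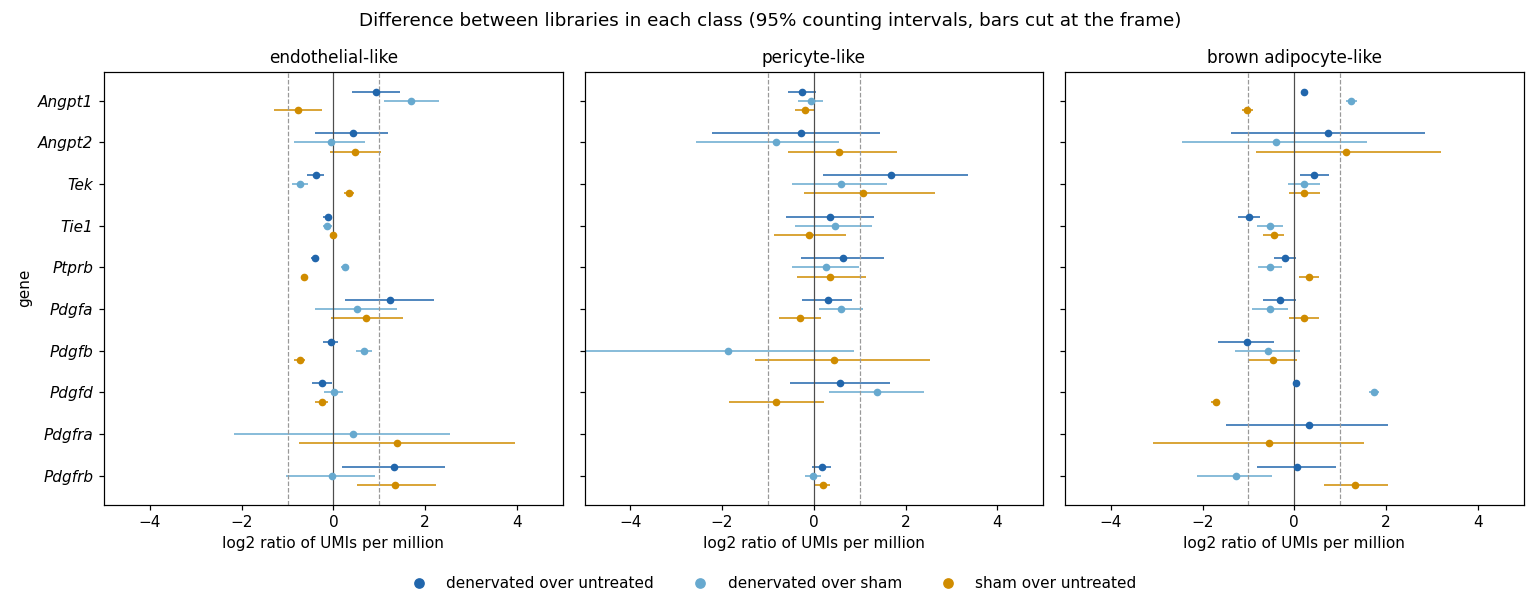
Log2 ratio between libraries for each gene in endothelial, pericyte and brown adipocyte nuclei, with 1 color per pair of libraries and 95% counting intervals cut at the frame. In these 3 classes no gene is counted with the denervated library at least 2-fold off both others, and in brown adipocyte nuclei Pdgfd and Angpt1 differ by 1.74 and 1.24 for denervated over sham and by −1.71 and −1.02 for sham over untreated.

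**Figure D5:**
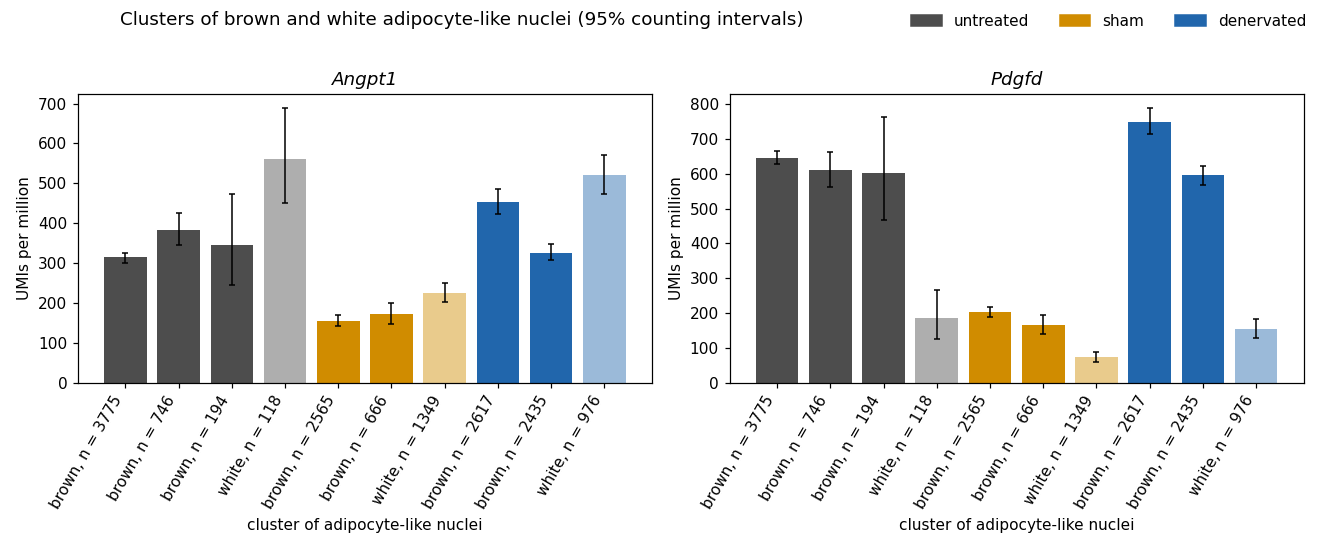
Levels of the adipocyte ligands in CPM in each cluster of adipocyte-like nuclei, with bars from 0, pale bars for white adipocyte-like clusters and 95% counting intervals. Pdgfd is 165 and 203 CPM in the sham brown adipocyte clusters against 595 to 750 CPM in the untreated and denervated ones.

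Other genes of both pathways were counted from a list of 24 adaptors, co-receptors, proteases and further ligands. Between EC-like and BA-like nuclei 3 of 20 tested were higher in ECs in all libraries (Grb2, Plat and Plcg1) and 5 lower (Grb14, Lrp1, Pdgfc, Pik3r1 and Svep1). Between PC-like and EC-like nuclei 4 of 18 were higher in PCs (Grb14, Lrp1, Pik3ca and Pik3r1) and 2 lower (Nrp1 and Plcg1), genes that are named here after their values were seen. Over all genes these shares were 13% and 13.6%, and 9.25% and 7.39%, as given above. The highest of the list in untreated ECs was Nrp1, a co-receptor of vessel ligands, at 1712, 1471 and 1747 CPM in the untreated, sham and denervated libraries, followed by Foxo1, a transcription factor that Tek signalling restrains, at 231, 149 and 207 CPM, and Pik3r1, a regulatory subunit of PI3 kinase, at 195, 160 and 249 CPM. In PCs the highest were Pik3r1 at 708, 683 and 675 CPM, Nrp1 at 596, 670 and 532 CPM and Pik3ca, the catalytic partner of Pik3r1, at 488, 443 and 379 CPM.

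Denervation by the rule of both contrasts counted 1 of 19 listed genes in ECs, 0 of 17 in PCs and 1 of 22 in BAs, beside 4.75%, 5.42% and 5.56% of all genes. The EC gene was Pdgfc, a ligand of Pdgfra, from 8 denervated against 6 untreated and 3 sham UMIs, with log2 2.21 and 3.05. BA-like nuclei held Pdgfc at 33.1, 19.9 and 37.5 CPM, and the brown adipocyte list in ECs, given above for Angpt1, was also highest in the denervated library, with its part in the Pdgfc value not tested. The BA gene was Pdgfrl, a receptor-like protein of the PDGF family, at 10.1 CPM against 4.87 and 2.12 CPM, with log2 1.05 and 2.25. The Pdgfrl levels rest on 52, 42 and 10 UMIs. The median log2 of the members tested, denervated over untreated, was −0.06 for 9 members in ECs, 0.33 for 8 in PCs and 0.04 for 10 in BAs, beside 0.08, −0.02 and 0.07 for all genes tested. Denervated over sham it was 0.13 for 10 members in ECs, 0.27 for 9 in PCs and −0.52 for 9 in BAs, beside 0.07, −0.03 and 0.13.

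The genes most like each member were found by Pearson correlation of log2(CPM + 1) over 22 classes within libraries, points that share libraries and depth, and are given as a description. Ptprb followed the endothelial markers Flt1 (0.97) and Pecam1 (0.96) and then Bmp6 (0.90), and Tie1 followed Emcn and Cyyr1 (both 0.92), also endothelial markers, and then Myo1d (0.91). Tek was closest to Sncaip (0.88), Tmem64 (0.83) and Plvap (0.82), and Pdgfb to Enpp4, Adgrl4 (both 0.84) and Eif1 (0.83). Pdgfrb was closest to Rem1 (0.95), Plcl1 and Pde4c (both 0.94), Pdgfra to Smoc2 (0.98), Cxcl14 and Clec3b (both 0.95), and Angpt2 to Gamt (0.95), Snai2 (0.92) and Sema3f (0.91). Angpt1 was closest to Zfp703 (0.92), Hspb8 (0.91) and Rgma (0.90), and Pdgfa to Cpe, Ntn4 (both 0.89) and Atpif1 (0.88). Pdgfd had the weakest likeness, 0.74 to Abcc4, 0.70 to Arhgap29 and 0.69 to Ide.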

How the data were processed

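Nuclei of 3 libraries, 1 per condition, were profiled on the BD Rhapsody platform. The values used are UMI counts per nucleus and gene, which the authors deposited from the Rhapsody pipeline as molecules per cell after its own UMI correction. Per the file headers, the untreated and denervated data used GRCm38 with a GENCODE annotation, the sham table has no header, and the submitters' processing notes name GRCh38 and Seurat 4.0.6. The authors' later steps (DIEM and decontX, which remove debris and ambient RNA) were not repeated, so free RNA remains in the counts.

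From the counts, barcodes under 200 genes or above 50% mitochondrial UMIs were left out. A nucleus was treated as a doublet and removed where at least 3 UMIs of markers of each of 2 classes were seen and the smaller sum was at least 25% of the larger. Each library was clustered on its own by the Louvain method without the 10 genes and the 24 further pathway genes. Settings were 2000 variable genes, 30 components, 20 neighbours and resolution 0.5. Tools were scikit-learn 1.9.0, python-igraph 0.11.9, Python 3.11.15, numpy 2.4.6 and scipy 1.17.1, with scanpy 1.11.5 for the Scrublet alternative only. Named clusters that were neither endothelial nor adipocyte were pooled and clustered again at resolution 1. Clusters were named from 14 marker lists by a rule set after the clusters were seen, so rebuilt names may account for any difference from the study. UMIs were summed over each class. Intervals are exact at the 95% level (Poisson for CPM, Clopper-Pearson for shares, conditional binomial for ratios). For depth-matched shares every nucleus was thinned to 300 UMIs, and shallower nuclei were dropped. With 1 library per condition no test between conditions was possible and no p-value is given. On simulated counts for denervated over untreated EC-like nuclei (11683 genes), 100% of 196 changed genes had the right sign, 1.35% of unchanged genes were counted, and 32.3% of genes changed by log2 1 and 88.3% of those changed by log2 2 were counted. These counts were drawn from the untreated profile with counting error alone. They hold no other difference between libraries and do not cover the rule of both contrasts. In the data this contrast counted 7.89% of 12503 genes.

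All 10 genes are named, and of the pathway list the highest 3 per class any gene counted for denervation, and the 3 genes most like each member. The members and lists were chosen with earlier results of these data known. Gene positions are from GENCODE on GRCm38. Promoter windows were found for 5 of the 10 genes, and the motifs were chosen after other motifs had no match in these windows. Of the alternatives, 13 were planned and 2 were added.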

Additional observations from a re-analysis of the deposited data

Results flagged for a closer look

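The values of Tek and of Pdgfa in the denervated library lay on opposite sides of 0 in different classes, and the difference between classes was not tested. Tek in EC-like nuclei was at log2 −0.38 against the untreated and −0.73 against the sham library, while in PC-like nuclei it was at 1.68 (0.19 to 3.36) and 0.60 (−0.48 to 1.59), from 13 denervated UMIs, and in BA-like nuclei at 0.44 (0.13 to 0.75) and 0.22 (−0.13 to 0.57). After thinning, the share of PC-like nuclei with a Tek UMI was 0.308% in the untreated, 0.724% in the sham and 0.711% in the denervated library. Pdgfa was at 1.24 (0.26 to 2.19) and 0.52 (−0.40 to 1.38) in EC-like nuclei, from 17 denervated UMIs, at 0.30 (−0.25 to 0.84) and 0.60 (0.11 to 1.08) in PC-like nuclei and at −0.31 (−0.67 to 0.04) and −0.52 (−0.91 to −0.13) in BA-like nuclei. Of these values, Tek at 1.68 and Pdgfa at 1.24 were counted as 2-fold differences and the others were not. With the 3 libraries clustered together, PC-like nuclei held Pdgfa at 142, 110 and 104 CPM in the untreated, sham and denervated libraries. The higher denervated value was thus not seen in that clustering. The smooth muscle list in PC-like nuclei of the main clustering was 285, 331 and 882 CPM, and its part in the Pdgfa values was not tested. Both contrasts share the denervated library.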

How the results depend on the processing

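Of 59 counted ratios, recomputed as 656 values under the alternatives, 655 kept their sign and 627 also kept a 2-fold size. The reversal was Angpt1 for denervated over sham ECs, which became log2 −0.27 with nuclei of at least 500 genes; that setting left 188 denervated EC-like nuclei and no denervated PC-like class, so it gave no PC count. The count of 6 genes between ECs and BAs ranged from 5 to 7, with Angpt2 lost under 3 alternatives (at least 500 genes, ambient RNA subtracted, at least 30 UMIs) and Pdgfrb gained without doublet removal, and that of 8 between PCs and ECs stayed at 8 wherever it could be computed. For denervation against both libraries, ECs gave 1 gene (Angpt1) without doublet removal and 1 (Angpt1) with the libraries clustered together; PCs gave 1 (Pdgfd) without doublet removal, 1 (Pdgfd) with Scrublet, and 2 (Pdgfd and Angpt2) with nuclei classed one by one. For sham over untreated ECs the count was 0 with at most 10% mitochondrial UMIs and 2 (Pdgfrb and Angpt1) with the libraries clustered together, and its 1 gene was Angpt2 after subtraction of ambient RNA and Angpt1 with nuclei weighted equally. Leaving out the sham library, 1 of the 2 alternatives chosen after seeing the data, gave 2 genes in ECs (Pdgfa and Pdgfrb), 1 in PCs (Tek) and 1 in BAs (Pdgfb), since the denervated library then has to differ from the untreated one alone. Otherwise the cause of a moved count was not tested. Subtraction of ambient RNA moved 47 of 101 values and reversed 0, no removal of doublets moved 42 of 137, and thinning to 500 in place of 300 UMIs moved 49 of 90 shares of nuclei with a UMI, which rise with depth by construction. The ambient profile came from barcodes under 200 genes and itself held vessel RNA, so its subtraction can remove a class's own transcripts. No paired analysis was possible because each condition has 1 library and the labels carry no replicate numbers. Genes under 10 UMIs gave no ratio, and small classes limit Tek, Pdgfra and Pdgfrb in fibroblast-like nuclei.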

Other observations

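A cluster of 134 untreated EC-like nuclei led by Hbb-bs and also by Apln, a gene of sprouting endothelium, had Angpt2 at 73.6 CPM (31.8 to 145, 8 UMIs), Pdgfb at 901 CPM (732 to 1098) and Tek at 257 CPM (171 to 372). A cluster of 122 denervated EC-like nuclei led by Apln, Mki67 and Plvap had Angpt2 at 45.4 CPM (14.8 to 106, 5 UMIs), Pdgfb at 636 CPM (496 to 804) and Tek at 254 CPM (169 to 368). A sham cluster of 881 EC-like nuclei with Apln among its leading genes had Angpt2 at 14.9 CPM (6.42 to 29.3), Pdgfb at 390 CPM (339 to 447) and Tek at 459 CPM (403 to 520). Of these clusters, only the untreated one had an Angpt2 interval apart from that of all EC-like nuclei of its library. Beside them, all EC-like nuclei of the untreated, sham and denervated libraries had Angpt2 at 17.6, 24.6 and 23.6 CPM, Tek at 472, 600 and 362 CPM and Pdgfb at 497, 298 and 476 CPM. Other EC-like clusters had Tek as low, down to 290 CPM in the untreated, 333 CPM in the sham and 273 CPM in the denervated library among those not named here. EC-like clusters led by Fos and Egr1 had Tek at 357 CPM (286 to 440) in the untreated and 214 CPM (136 to 321) in the denervated library. These clusters were chosen after their values were seen.

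Immune-like nuclei, named in the untreated and denervated libraries, held Angpt1 at 142 CPM (73.6 to 249) and 205 CPM (149 to 274) and Pdgfrb at 23.7 CPM (2.87 to 85.7) and 105 CPM (66.3 to 157). RNA of other classes was high in these nuclei: the immune list was 7013 and 2960 CPM, the brown adipocyte list 4569 and 4783 CPM, above the immune list in the denervated library, and the pericyte list 380 and 605 CPM. Their part in the Angpt1 and Pdgfrb levels was not tested.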
